A study of Homo sapiens with 12 samples.

Results

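The genes of cytosolic DNA sensing were followed across 4 lines of MIA PaCa-2, a human pancreatic carcinoma cell line, by bulk RNA sequencing. The group held 10 genes, among them the sensors IFI16, AIM2 and CGAS, and PYHIN1, of the same family as IFI16 and AIM2. The others were the adaptor STING1, the kinase TBK1, and the nucleases and hydrolases TREX1, RNASEH2A, RNASEH2B and ENPP1. All 10 were found by symbol among 63086 genes in the normalised count table, where STING1 is written TMEM173. The 4 lines were WT, CRISPR Control, TIMP1 KO 1 and TIMP1 KO 2, with 3 libraries each. WT cells were not manipulated. CRISPR Control was the control line of the editing and carried no more than a silent point mutation in TIMP1, the gene for an inhibitor of matrix metalloproteinases. TIMP1 KO 1 and TIMP1 KO 2 were knockout clones edited in exon 4 of TIMP1 by CRISPR-Cas9. Each knockout line was thus 1 clone, and a difference that belongs to a clone cannot be told apart from one that belongs to the knockout within either line. All lines were grown in RPMI 1640 with fetal calf serum.

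In this pathway, cGAS binds double-stranded DNA in the cytosol and makes the cyclic dinucleotide cGAMP, which binds STING on the endoplasmic reticulum. STING then recruits TBK1, which phosphorylates the transcription factor IRF3, and interferon genes and interferon-stimulated genes are switched on. TREX1 degrades cytosolic DNA, RNase H2 removes ribonucleotides from DNA and RNA from DNA hybrids, and ENPP1 cleaves cGAMP outside the cell, so that these enzymes act as brakes. The pathway is known in carcinoma cells as a route from misplaced nuclear or mitochondrial DNA to interferon.

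The libraries held 26908701 to 36093563 reads in genes. TIMP1 stood at 3290 to 3837 normalised counts in WT, 2285 to 2959 in CRISPR Control, 1562 to 1624 in TIMP1 KO 1 and 1136 to 1192 in TIMP1 KO 2 (lowest to highest of 3 libraries). Every library of the knockout lines thus lay below those of WT and CRISPR Control, though transcripts of the edited gene were still counted. All 9 markers of pancreatic carcinoma cells had a mean of at least 10 normalised counts in each line. Their summed level was 280545 to 302362 normalised counts in WT, 327484 to 333869 in TIMP1 KO 1 and 268438 to 291030 in TIMP1 KO 2, and lower in CRISPR Control, at 122511 to 153547. Among them CDH1, the epithelial cadherin, had means of 1189 and 1424 in WT and CRISPR Control and 128 and 84.9 in TIMP1 KO 1 and TIMP1 KO 2, and was named after its values were seen. No other marker of the 9 had means below those of WT and CRISPR Control in both knockout lines. Some were higher there, such as MUC1, with means of 584, 319, 896 and 795 in the same order, also named after its values were seen. Of 9 leukocyte markers, CD14 and ITGAM reached this level in every line and CD68 in TIMP1 KO 2. The summed level of the 9 genes was 53.8 to 73.3 normalised counts in WT and CRISPR Control, 117 to 134 in TIMP1 KO 1 and 249 to 299 in TIMP1 KO 2. The defining leukocyte markers were at or near 0, with at most 9 reads of PTPRC, 2 of CD3E and 0 of MS4A1 in any library. Among 3 endothelial markers, 0 reached the level in WT, 1 in CRISPR Control, 1 in TIMP1 KO 1 and 2 in TIMP1 KO 2. Of 3 fibroblast markers, PDGFRB alone did so in each line.

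The 10 genes were chosen from results of these libraries, in which their normalised counts in the 4 lines were already known. Their differences between lines are therefore a description, with SD over the 3 libraries of a line and no p-value. A gene is called past the threshold where its Benjamini-Hochberg adjusted p in limma, over all 15987 genes that averaged at least 10 normalised counts across the 12 libraries, was under 0.05. Every p-value in this report weighs a difference against the spread between libraries of a line, and not against the spread between clones. A small p-value therefore does not tell an effect of the knockout from a difference between clones. Of the 10 genes, 6 had this mean and 4 did not. On GRCh38, by GENCODE release 44, these 6 are IFI16 (ENSG00000163565.20) at chr1:158999968-159055155 on the + strand, CGAS (ENSG00000164430.17) at chr6:73413515-73452297 on the - strand, STING1 (ENSG00000184584.14) at chr5:139475533-139482935 on the - strand, TBK1 (ENSG00000183735.11) at chr12:64452090-64502114 on the + strand, RNASEH2B (ENSG00000136104.22) at chr13:50909747-51024120 on the + strand and ENPP1 (ENSG00000197594.14) at chr6:131808016-131895155 on the + strand. In bulk libraries, fewer cells that express a gene and less RNA of it per cell cannot be told apart.

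IFI16, a nuclear and cytosolic DNA sensor that interferon is known to induce, differed most between the lines. Its normalised counts were 1.13, 1.82 and 0 in the WT libraries, from 1, 2 and 0 reads. In CRISPR Control they were 8.64, 16.6 and 14.3, and in TIMP1 KO 1 they were 6.48, 1.13 and 6.18. In TIMP1 KO 2 they were 611, 580 and 571, so that every library of this line lay above every library of the others. Against the level that 3 reads per library would give in WT, the mean of TIMP1 KO 2 was at least 196-fold higher. It was 128-fold above the mean of TIMP1 KO 1 and 44.6-fold above that of CRISPR Control. IFI16 passed the minimum mean through TIMP1 KO 2 alone. Of its exon bases, 425 are shared with PYDC5 on the opposite strand. The libraries of CRISPR Control also lay above those of WT without overlap, at a mean at least 4.40-fold over the WT level of 3 reads. In TIMP1 KO 1 the mean was at least 1.54-fold over that level, and replicate 2 of this line overlapped WT.

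**Figure D1:**
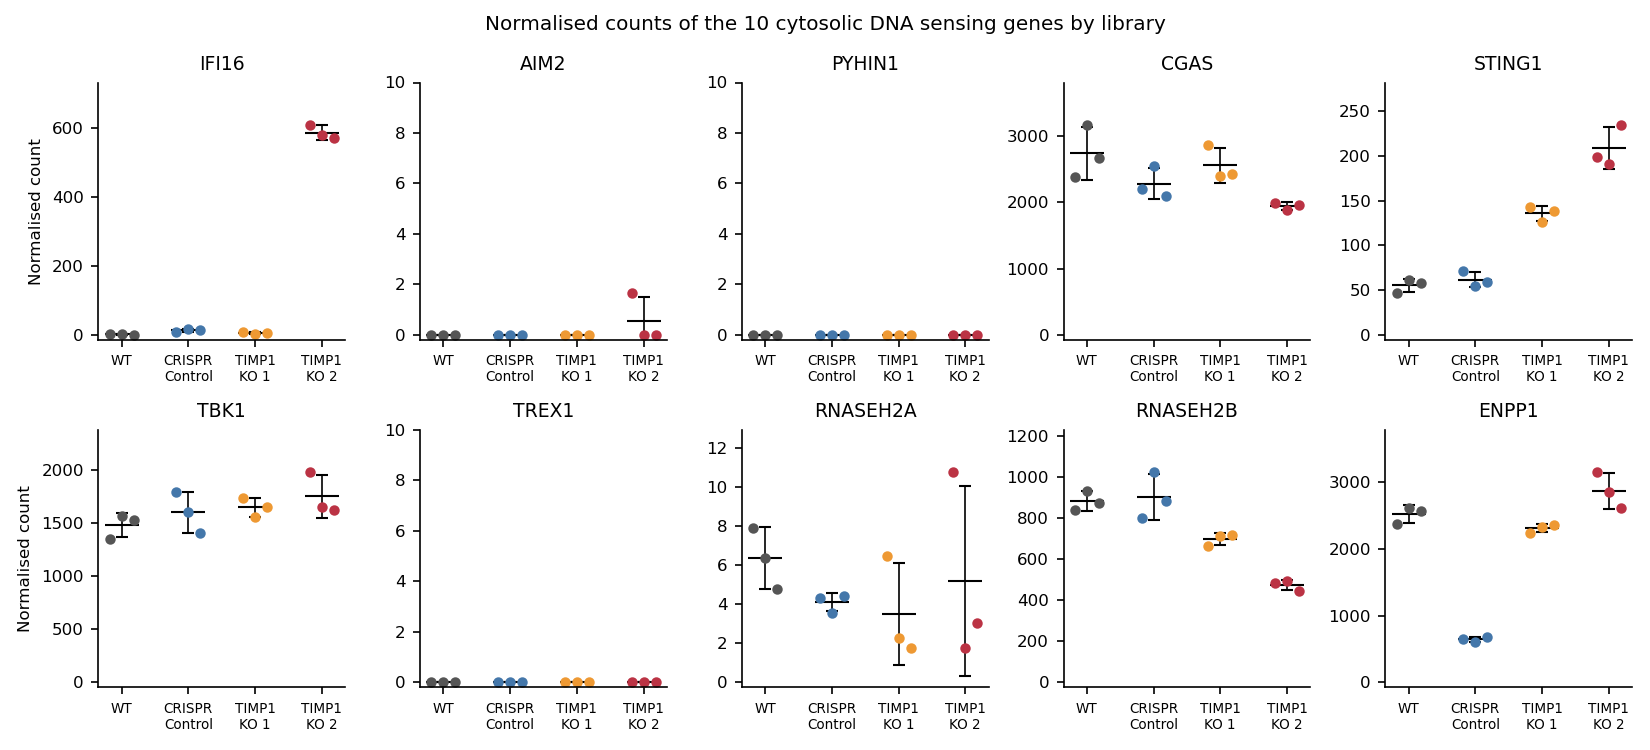
Normalised counts (vertical axes, linear, each with its own range) of the 10 genes in the 12 libraries by line. Points are libraries, horizontal bars are means and error bars are SD (n = 3). IFI16 is high in TIMP1 KO 2 alone, STING1 is higher in both knockout lines, RNASEH2B is lower in them, and ENPP1 is low in CRISPR Control.

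AIM2 and PYHIN1 belong to the same PYHIN family as IFI16 and lie beside it on chromosome 1. AIM2, which builds an inflammasome with the adaptor PYCARD when it binds DNA, was at 0 in 11 of 12 libraries and at 1.66 normalised counts (2 reads) in TIMP1 KO 2 replicate 1. PYHIN1, a nuclear protein of the family, was at 0 reads in all 12. At these depths a count of 0 allows up to 3 reads in a library, and this covers counting error only. The level of IFI16 in TIMP1 KO 2 was thus not shared by its neighbours in the family.

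The promoters of these 3 genes are shown because the genes neighbour each other and hold the same interferon motif, yet stood at very different levels in TIMP1 KO 2. Each line below is a run of 120 bases upstream of a transcription start, written 5′ to 3′ on the strand of the gene from the RefSeq promoter table of GRCh38.p14. Capitals mark the core of the interferon-stimulated response element, GAAANNGAA or its reverse complement TTCNNTTTC. The stretches are chr1:159009767-159009886 on the + strand for IFI16, chr1:158931412-158931531 on the + strand for PYHIN1 and chr1:159076866-159076985 on the - strand for AIM2. None of them overlaps an exon of GENCODE release 44.
IFI16: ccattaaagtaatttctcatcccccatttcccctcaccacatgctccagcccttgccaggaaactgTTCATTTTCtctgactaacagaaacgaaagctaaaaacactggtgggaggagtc
PYHIN1: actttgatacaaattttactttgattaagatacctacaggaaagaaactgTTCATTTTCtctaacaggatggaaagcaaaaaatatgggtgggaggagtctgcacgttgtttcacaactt
AIM2: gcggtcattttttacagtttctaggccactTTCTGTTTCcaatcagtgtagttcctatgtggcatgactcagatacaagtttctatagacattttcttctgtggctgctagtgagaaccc

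The core began 74 bases before the start in IFI16, 90 in PYHIN1 and 189 in AIM2. The stretches of IFI16 and PYHIN1 shared a run of 19 bases, gaaactgttcattttctct, that contains it. A second RefSeq window of IFI16 did not hold the core. The table had windows, of 250 bases before to 50 after a start, for 8 of the 10 genes, and these 3 were the ones with the core on either strand. Of all 35116 windows in the table, 8.11% held it. The gamma-activated site TTCNNNGAA, which reads the same on both strands, was in 7.66% of all windows and in none of the 10 windows of these 8 genes. A match is a description of the letters and not a binding site.

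CGAS, the enzyme that makes cGAMP, had the highest level per length of the 6 genes with the minimum mean. Its normalised counts were 2380, 3177 and 2669 in WT, 2205, 2548 and 2098 in CRISPR Control and 2869, 2396 and 2429 in TIMP1 KO 1. TIMP1 KO 2 had the lowest 3 libraries, at 1993, 1879 and 1957, which overlapped no other line. The mean was 1943 ± 58.4 (SD, n = 3) there against 2742 ± 404 in WT, 70.9% of the WT mean, a log2 difference of -0.49 with an SE of 0.10. TIMP1 KO 1 overlapped both WT and CRISPR Control, and its mean was 93.5% of that of WT. Of the exon bases of CGAS, 180 are shared with DDX43 on the opposite strand, and whether strand was used in counting is not given in the sources used here.

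STING1, the adaptor that binds cGAMP, was higher in both knockout lines. Its normalised counts were 46.4, 60.9 and 58.1 in WT and 70.8, 54.6 and 59.3 in CRISPR Control, and these 2 lines overlapped. In TIMP1 KO 1 they were 143, 126 and 139, and in TIMP1 KO 2 they were 199, 191 and 235. The libraries of the knockout lines overlapped neither each other nor the other lines. The mean was 2.46-fold that of WT in TIMP1 KO 1 and 3.78-fold in TIMP1 KO 2, log2 differences of 1.29 and 1.90 with an SE of 0.16. Against CRISPR Control the means were 2.20-fold and 3.38-fold. The 2 abundant leukocyte markers moved in the same order, CD14 from a mean of 36.2 normalised counts in WT to 83.0 in TIMP1 KO 1 and 161 in TIMP1 KO 2, and ITGAM from 18.8 to 37.2 and 91.7, while PTPRC, CD3E and MS4A1 stayed at or near 0.

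TBK1, the kinase that STING recruits, varied little. It stood at 1348, 1567 and 1530 normalised counts in WT and 1794, 1605 and 1410 in CRISPR Control, and 1733, 1557 and 1652 in TIMP1 KO 1 and 1981, 1653 and 1621 in TIMP1 KO 2. CRISPR Control and TIMP1 KO 1 overlapped WT, while TIMP1 KO 2 lay just above it. The mean of TIMP1 KO 2 was 1.18-fold that of WT, a log2 difference of 0.24 with an SE of 0.10.

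Among the brakes, TREX1 was listed at 0 in all 12 libraries. TREX1, the major cytosolic DNA exonuclease, lies at chr3:48465811-48467645 on the + strand of GRCh38 and has 1448 exon bases in GENCODE release 44. All of these bases (100%) also lie in exons of ATRIP on the same strand. ATRIP, a partner of the checkpoint kinase ATR, stood at a mean of 617 ± 23.3 normalised counts in WT and 763 ± 96.2 in CRISPR Control, and 422 ± 3.90 in TIMP1 KO 1 and 391 ± 10.6 in TIMP1 KO 2 (SD, n = 3). Of 342 protein-coding genes in the same position, with every exon base shared with another gene of the same strand, 340 (99.4%) had a mean under 10 normalised counts and 235 were at 0 in all libraries. Among the 16258 protein-coding genes with no shared base, 32.8% had a mean under 10. The listed 0 of TREX1 therefore gives no level for it, and how the reads of the shared bases were counted was not tested.

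**Figure D2:**
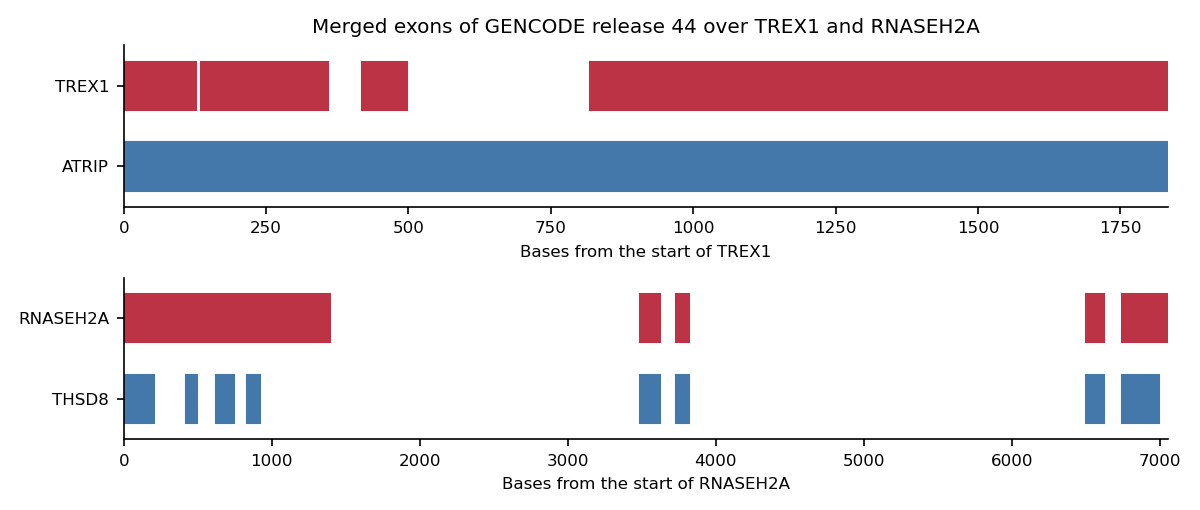
Merged exons (boxes) of TREX1 with ATRIP and of RNASEH2A with THSD8, by distance in bases from the start of TREX1 or RNASEH2A, all on the + strand. ATRIP covers every exon base of TREX1, and THSD8 covers 53.3% of those of RNASEH2A.

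RNASEH2A and RNASEH2B encode the catalytic and an auxiliary subunit of RNase H2. RNASEH2A stood at 1.75 to 10.8 normalised counts, from 2 to 13 reads, and each knockout line overlapped both WT and CRISPR Control. Of its exon bases, 1095 (53.3%) are shared on the same strand with THSD8, which averaged 1.64 normalised counts across all libraries. Unlike TREX1, RNASEH2A has exon bases that are not shared, and genes in this position were not looked at as a set. How reads of the shared bases were counted was not tested, so no level of RNASEH2A is read from these counts. RNASEH2B stood at 842, 936 and 876 normalised counts in WT and 801, 1026 and 886 in CRISPR Control. It was lower in TIMP1 KO 1, at 664, 716 and 719, and lower still in TIMP1 KO 2, at 486, 493 and 444. The libraries of the knockout lines overlapped neither each other nor the other lines, and their means were 79.1% and 53.6% of that of WT, log2 differences of -0.34 and -0.90 with an SE of 0.10. RNASEH2C, the other auxiliary subunit and no member of the group, had a mean of 2305 ± 122 normalised counts in WT and 2667 ± 322 in CRISPR Control, and 2019 ± 128 in TIMP1 KO 1 and 1878 ± 232 in TIMP1 KO 2 (SD, n = 3), and it fell in the knockout lines against WT and CRISPR Control by 0.35 on the log2 scale (limma, Benjamini-Hochberg adjusted p = 0.000203). Against WT alone it was -0.19 in TIMP1 KO 1 (limma, Benjamini-Hochberg adjusted p = 0.136) and -0.30 in TIMP1 KO 2 (adjusted p = 0.0137). RNASEH2C was named after its values were seen.

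ENPP1, the hydrolase of extracellular cGAMP, set CRISPR Control apart. Its normalised counts were 2377, 2620 and 2577 in WT, 2243, 2329 and 2359 in TIMP1 KO 1, and 3156, 2861 and 2617 in TIMP1 KO 2. In CRISPR Control they were 648, 604 and 680, and these libraries lay far below all others. The mean of CRISPR Control was 25.5% of that of WT, a log2 difference of -1.97 with an SE of 0.08. The knockout lines were therefore 3.59-fold and 4.47-fold above CRISPR Control, but 0.915-fold and 1.14-fold of WT, and the low level of CRISPR Control enters the log2 difference of 1.01 between the mean of the knockout lines and the mean of WT and CRISPR Control.

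**Figure D3:**
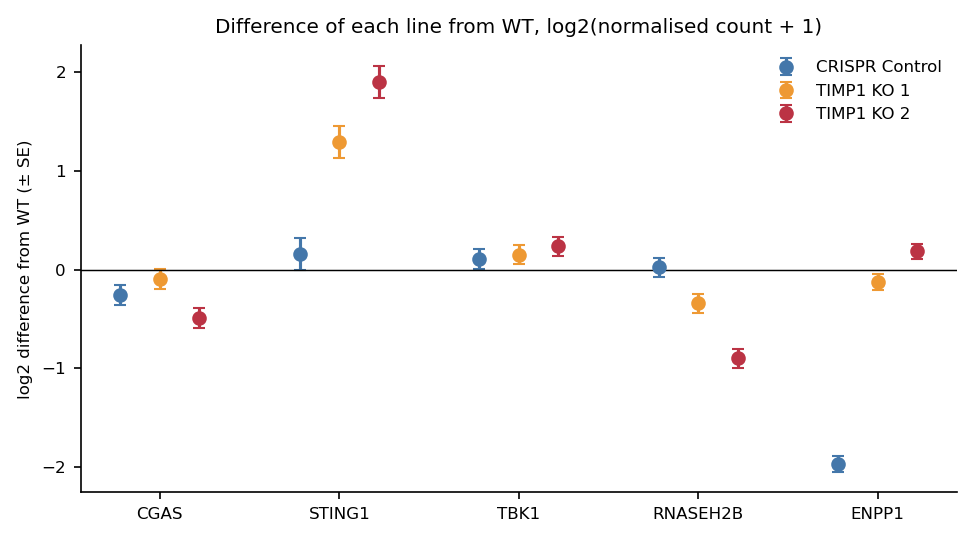
Log2 difference of each line from WT (vertical axis, on log2 of normalised count plus 1) for 5 of the 6 genes with a mean of at least 10, with SE from limma. STING1 lies at 1.29 in TIMP1 KO 1 and 1.90 in TIMP1 KO 2, RNASEH2B at -0.34 and -0.90, and ENPP1 at -1.97 in CRISPR Control. IFI16 is left out because its WT libraries held at most 2 reads.

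Per kilobase of merged exons, the WT means ran from 657 normalised counts for CGAS through 221 for ENPP1, 101 for TBK1, 33.7 for RNASEH2B and 11.5 for STING1 to 0.186 for IFI16, and no neighbours in this order overlapped. In CRISPR Control, TBK1 at 109 came before ENPP1 at 56.4. In TIMP1 KO 1, STING1 at 28.3 and RNASEH2B at 26.7 overlapped. In TIMP1 KO 2, IFI16 at 111 overlapped TBK1 at 119, and STING1 at 43.4 stood above RNASEH2B at 18.1. The exon lengths are of GENCODE release 44 with all isoforms merged, which lowers the level of a gene with long rare isoforms.

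The counts of the 6 genes past the threshold are given beside the share of all 15987 genes past it, and nothing is read from them. IFI16 reached the minimum mean through TIMP1 KO 2 alone, so that its higher level in that line was fixed by the filter. It is included in the counts and medians of the 6 genes here and in the next paragraph. In TIMP1 KO 1 against WT, IFI16 and STING1 were higher and RNASEH2B lower, 3 of 6, beside 35.5% of all genes (18% higher and 17.5% lower). In TIMP1 KO 2 against WT, IFI16, STING1 and TBK1 were higher and CGAS and RNASEH2B lower, 5 of 6, beside 55% (27.1% higher and 27.9% lower). With equal library totals the split of all genes in this comparison moved from 4330 higher and 4461 lower to 5245 and 3500. CRISPR Control was higher than WT in IFI16 and lower in CGAS and ENPP1, 3 of 6, beside 53.4% (27.2% higher and 26.3% lower). The libraries of the lines compared did not overlap for 3, 5 and 2 of the 6 genes, beside 52.6%, 62.9% and 55.8% of all genes.

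Against CRISPR Control, STING1 and ENPP1 were higher and IFI16 and RNASEH2B lower in TIMP1 KO 1, 4 of 6, beside 63% of all genes (31.7% higher and 31.3% lower), and the libraries of these 4 genes did not overlap, beside 65.1%. In TIMP1 KO 2, IFI16, STING1 and ENPP1 were higher and RNASEH2B lower, 4 of 6, beside 67.7% (33.3% higher and 34.4% lower), and libraries did not overlap for 5 of 6, beside 67.7%. TIMP1 KO 2 was higher than TIMP1 KO 1 in IFI16, STING1 and ENPP1 and lower in CGAS and RNASEH2B, 5 of 6, beside 38.2% (18.1% higher and 20.1% lower), and these 5 did not overlap, beside 53.1%. This split of all genes turned with equal library totals, from 2890 higher and 3210 lower to 3896 and 2047, while the 6 genes kept 3 higher and 2 lower. In the mean of the knockout lines against the mean of WT and CRISPR Control, IFI16, STING1 and ENPP1 were higher and RNASEH2B lower, 4 of 6, beside 65.9% (32.9% higher and 33% lower), and libraries did not overlap for STING1 and RNASEH2B, 2 of 6, beside 24.7%. The median log2 difference over the 6 genes was 0.03, 0.21 and 0.07 in TIMP1 KO 1, TIMP1 KO 2 and CRISPR Control against WT, where the median of all genes was 0.00, -0.01 and 0.01.

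Single libraries carried some of these calls. IFI16 in TIMP1 KO 1 against WT was no longer past the threshold without WT replicate 3 (log2 difference 0.99), TIMP1 KO 1 replicate 1 (1.10) or TIMP1 KO 1 replicate 3 (1.13), and against CRISPR Control without TIMP1 KO 1 replicate 2 (-0.91). TBK1 in TIMP1 KO 2 against WT lost its call without WT replicate 1 (0.17) or replicate 3 (0.26), without TIMP1 KO 2 replicate 1 (0.15) or replicate 2 (0.28), and without any 1 library of TIMP1 KO 1 (0.24). CGAS in CRISPR Control against WT lost it without WT replicate 2 (-0.15) or replicate 3 (-0.27) and without CRISPR Control replicate 1 (-0.24) or replicate 3 (-0.20). ENPP1 in TIMP1 KO 2 against WT came past the threshold without TIMP1 KO 2 replicate 3 (0.25) or without any 1 library of CRISPR Control (0.19). CGAS came past it in TIMP1 KO 2 against CRISPR Control without WT replicate 1, WT replicate 2 or TIMP1 KO 1 replicate 1 (-0.23) and without CRISPR Control replicate 3 (-0.29), and in TIMP1 KO 1 against CRISPR Control without CRISPR Control replicate 2 (0.25). In the mean of the knockout lines against WT and CRISPR Control, CGAS came past it without WT replicate 1 (-0.21), CRISPR Control replicate 1 (-0.17), CRISPR Control replicate 3 (-0.19) or TIMP1 KO 1 replicate 1 (-0.20), and TBK1 without CRISPR Control replicate 1 (0.18). No call of STING1 or RNASEH2B was lost or gained when a library was left out.

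For the 3 genes with the widest range of line means, the genes of the most similar profile were found by the root mean square distance between centred log2 profiles over the 12 libraries. For IFI16 these were BST2 (distance 1.14), IFI27 (1.15) and CMPK2 (1.21), at larger distances than the genes found for ENPP1 and STING1. Like IFI16, IFI27 reached the minimum mean through TIMP1 KO 2 alone, with means of 2.98, 5.75 and 12.2 in WT, CRISPR Control and TIMP1 KO 1. BST2, an interferon-induced antiviral membrane protein, had means of 14.6, 28.6, 34.9 and 1711 normalised counts in the order WT, CRISPR Control, TIMP1 KO 1, TIMP1 KO 2. For ENPP1 they were EPHB2 (0.11), CACNA1D (0.16) and RUNX1 (0.16), and EPHB2 had means of 10195, 2753, 10241 and 12661. For STING1 they were EBI3 (0.19), THSD4 (0.19) and ERAP2 (0.20), and EBI3 had means of 178, 226, 536 and 787. The points share libraries and lines, so the distance is a description.

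The other genes of the pathway were read in 6 lists of 150 genes, of which 128 reached the minimum mean and were tested. Against WT, 61 (47.7%) were past the threshold in TIMP1 KO 1 (40 higher, 21 lower), beside 35.5% of all genes. In TIMP1 KO 2 they were 97 (75.8%; 53 higher, 44 lower), beside 55%, and the split became 59 and 34 with equal library totals. In CRISPR Control they were 78 (60.9%; 38 higher, 40 lower), beside 53.4%. In TIMP1 KO 2 against TIMP1 KO 1, 35 were higher and 25 lower (46.9% together), beside 38.2%, which became 43 and 19 with equal library totals. In the mean of the knockout lines against the mean of WT and CRISPR Control, 56 were higher and 44 lower (78.1% together), beside 65.9%. The lists were chosen with results of these libraries known, so nothing is read from these shares. IFNL1, IFNL2, IFNL3 and RSAD2 reached the minimum mean through TIMP1 KO 2 alone, so that their rise there was fixed by the filter. Over the 124 genes without them, 37 were higher and 21 lower in TIMP1 KO 1 against WT. In TIMP1 KO 2 against WT these counts were 49 and 44. They were 31 and 25 in TIMP1 KO 2 against TIMP1 KO 1, and 52 and 44 in the mean of the knockout lines. CRISPR Control against WT kept 38 and 40. The comparisons share libraries, so their counts are given side by side.

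The list of output genes held mainly interferon, chemokine and interferon-stimulated genes, and whether DNA sensing raised them was not tested. It had the highest median difference from WT of the 6 lists in both knockout lines. Of the 12 tested output genes, IFNL1, IFNL2, IFNL3 and RSAD2 reached the minimum mean through TIMP1 KO 2 alone, so that their difference there was fixed by the filter. The other 8 all rose in TIMP1 KO 2 against WT, beside 27.1% of all genes in this direction, with a median log2 difference of 4.10. With those 4 genes the median was 5.20, or 4.72 with genes at or under 3 reads in WT set at their bound. In TIMP1 KO 1 against WT, 9 of the 12 rose and 1 fell, beside 18% and 17.5% of all genes, with a median of 1.64, or 1.60 with such genes at their bound. Of the 8, 6 rose and 1 fell, with a median of 1.29. The one that fell was OASL, at -0.94 on the log2 scale (limma, Benjamini-Hochberg adjusted p = 0.0012), which was named after its value was seen. In CRISPR Control against WT, 2 rose and 5 fell, beside 27.2% and 26.3% of all genes, with a median of -0.09 that became -0.34 with such genes at their bound and -0.72 over the 8. This list was chosen with results of these libraries known and is no independent evidence of its direction. Of the 9 leukocyte markers, 2, CD14 and ITGAM, had 10 normalised counts or more in every line, and CD68 in TIMP1 KO 2 as well. Their summed level, given above, was higher in the knockout lines, mainly through CD14 and ITGAM, while PTPRC, CD3E and MS4A1 were at or near 0. In CRISPR Control the mean of CD14 was 36.5 against 36.2 in WT, and that of ITGAM 13.3 against 18.8.

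MX1 and OAS1 were the 2 output genes with the largest rise in the mean of the knockout lines. They came from a list chosen with results of these libraries known, so their p-values are no independent evidence. MX1, a GTPase that blocks viral replication, had a mean of 54.6 ± 2.20 normalised counts in WT and 81.4 ± 15.9 in CRISPR Control, and 875 ± 278 in TIMP1 KO 1 and 10129 ± 300 in TIMP1 KO 2 (SD, n = 3). It rose by 3.93 on the log2 scale in TIMP1 KO 1 against WT (limma, Benjamini-Hochberg adjusted p = 7.9e-13) and by 7.51 in TIMP1 KO 2 (adjusted p = 7.5e-17). OAS1, which makes the activator of RNase L, had means of 55.7 ± 13.6, 29.1 ± 3.64, 464 ± 78.6 and 4198 ± 293 in the same order. Its log2 difference from WT was 3.05 in TIMP1 KO 1 (limma, Benjamini-Hochberg adjusted p = 2.6e-11) and 6.23 in TIMP1 KO 2 (adjusted p = 5.4e-16). IFI16 had 1 to 7 reads per library in TIMP1 KO 1, where both genes rose, against 0 to 2 in WT and 10 to 14 in CRISPR Control. Whether the level of IFI16 bears on these genes was not tested.

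The interferon genes themselves were low. IFNL1, a type III interferon, had a mean of 138 normalised counts in TIMP1 KO 2 (lowest 123, highest 160), at least 46.0-fold over the WT level of 3 reads, and 9.42 in TIMP1 KO 1 (lowest 5.30, highest 16.2). IFNL2 and IFNL3, near-identical copies between which reads may be split, stood at 78.7 to 102 and 76.7 to 112 in TIMP1 KO 2, with means at least 29.4-fold and 31.7-fold over that level. IFNB1, the type I interferon classically induced through STING, was not tested because its mean was under 10. It had 0 reads in every WT and CRISPR Control library, at most 1 in TIMP1 KO 1, and 6 to 20 in each library of TIMP1 KO 2. CXCL10, an interferon-induced chemokine, had 6 to 10 reads per library in TIMP1 KO 2 and at most 2 in the others. IFNL1, IFNL2, IFNL3, RSAD2, IFNB1 and CXCL10 were named here after their values were seen.

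**Figure D4:**
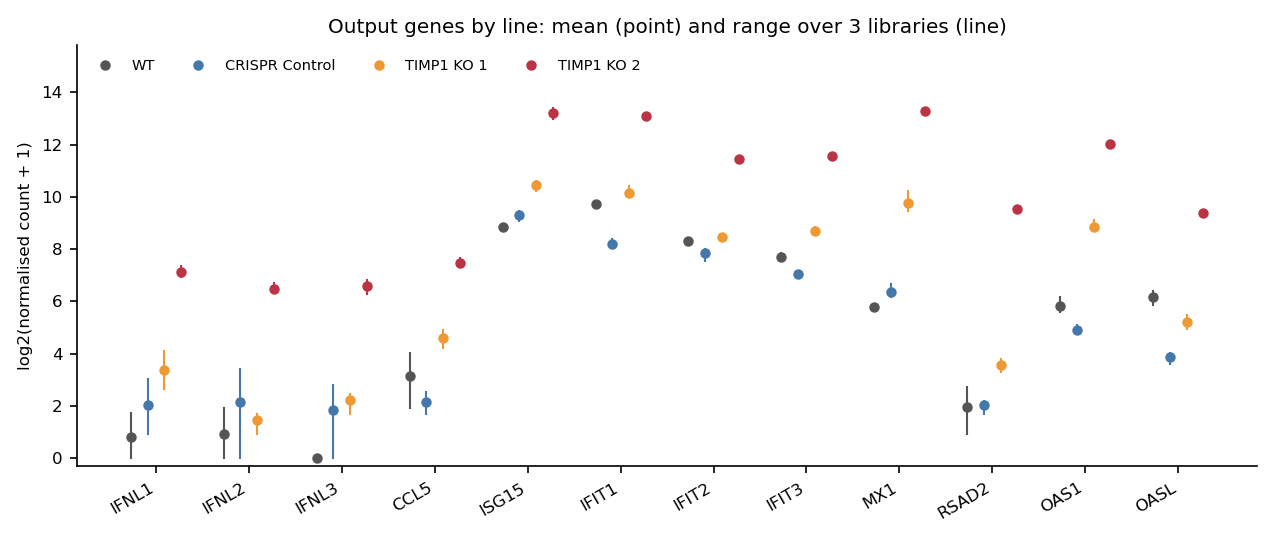
Log2 of normalised count plus 1 (vertical axis) of the 12 tested output genes by line, with the mean (point) and the lowest to highest of 3 libraries (vertical line). TIMP1 KO 2 lies above the other lines in each gene, which the minimum mean fixed for IFNL1, IFNL2, IFNL3 and RSAD2, and TIMP1 KO 1 lies between for genes such as MX1 (875 against 54.6 in WT and 10129 in TIMP1 KO 2).

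Of the 21 genes of the signal relay below STING, all tested, 9 rose and 4 fell in the mean of the knockout lines against WT and CRISPR Control, beside 32.9% and 33% of all genes, with a median log2 difference of 0.03. IRF7, an interferon-induced transcription factor of interferon genes, rose by 1.89 (limma, Benjamini-Hochberg adjusted p = 7.3e-14), from means of 416 and 370 normalised counts in WT and CRISPR Control to 1040 and 2050 in TIMP1 KO 1 and TIMP1 KO 2. STAT6, which STING can also activate, rose by 1.55 (limma, Benjamini-Hochberg adjusted p = 2.6e-15), from 3150 and 899 to 4934 and 4917, and its low level in CRISPR Control enters this value. TBKBP1, an adaptor of TBK1, fell by 0.66 (limma, Benjamini-Hochberg adjusted p = 5.1e-07), from 543 and 791 to 384 and 443. CHUK, a kinase of the NF-kB pathway, fell by 0.46 (limma, Benjamini-Hochberg adjusted p = 8.9e-08), from 2504 and 3402 to 2183 and 2069. For both, the high level of CRISPR Control enters the value. IRF3, the direct target of TBK1, had means between 2104 and 2209 normalised counts in all lines, and its log2 difference in this comparison was -0.05 with an SE of 0.07 (limma, Benjamini-Hochberg adjusted p = 0.53). IRF3 was named after its value was seen.

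Of 24 tested other sensors and inflammasome partners, 5 rose and 14 fell in the same comparison, beside the same 32.9% and 33% of all genes, with a median log2 difference of -0.25. CASP1, the inflammasome protease, rose by 3.08 (limma, Benjamini-Hochberg adjusted p = 2.3e-08), with means of 4.37 ± 3.56 and 11.6 ± 3.47 normalised counts in WT and CRISPR Control, 22.6 ± 5.81 in TIMP1 KO 1 and 172 ± 13.2 in TIMP1 KO 2 (SD, n = 3). GSDMD, the pore protein that caspases release, rose by 0.85 (limma, Benjamini-Hochberg adjusted p = 9.9e-09), while its mean in TIMP1 KO 2, 881 ± 143, was close to that in WT, 854 ± 30.7. Its mean was 396 ± 15.5 in CRISPR Control and 1255 ± 127 in TIMP1 KO 1. The low level of CRISPR Control enters the value of 0.85. Against WT alone the log2 differences of GSDMD were 0.55 in TIMP1 KO 1 and 0.03 in TIMP1 KO 2. IL18, a cytokine that CASP1 matures, fell by 2.05 (limma, Benjamini-Hochberg adjusted p = 3.0e-12), with means of 241 in WT, 1293 in CRISPR Control, 54.0 in TIMP1 KO 1 and 333 in TIMP1 KO 2. The high level of CRISPR Control enters the value of IL18, whose log2 differences from WT alone were -2.16 and 0.46. POLR3G, a subunit of RNA polymerase III, which can transcribe cytosolic DNA, fell by 0.75 (limma, Benjamini-Hochberg adjusted p = 4.5e-08), from means of 817 and 1509 to 683 and 639, and the high level of CRISPR Control enters this value. Against WT alone POLR3G was not past the threshold in TIMP1 KO 1 (-0.25), and its call in TIMP1 KO 2 (-0.35) was lost without WT replicate 2 (-0.27) and with equal library totals (-0.25).

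Of 35 tested regulators of cGAS and STING, 12 rose and 14 fell, beside 32.9% and 33%, with a median log2 difference of -0.09. ZDHHC15, a palmitoyltransferase, rose by 4.32 (limma, Benjamini-Hochberg adjusted p = 3.2e-13), with means of 31.8 normalised counts in WT and 3.01 in CRISPR Control, and 159 in TIMP1 KO 1 and 305 in TIMP1 KO 2. TTLL6, a polyglutamylase, rose by 3.51 (limma, Benjamini-Hochberg adjusted p = 8.5e-09), from 14.6 and 1.83 to 52.4 and 85.0. For both genes the low level of CRISPR Control enters the value. Against WT alone, the log2 differences in TIMP1 KO 1 and TIMP1 KO 2 were 2.29 and 3.22 for ZDHHC15. For TTLL6 they were 1.79 and 2.46. INSIG1, an endoplasmic reticulum protein that works with a ubiquitin ligase of STING, fell by 0.76 (limma, Benjamini-Hochberg adjusted p = 6.8e-10), from 1761 and 1908 to 1097 and 1064. CSK, a tyrosine kinase, fell by 0.67 (limma, Benjamini-Hochberg adjusted p = 3.3e-09), from 3664 and 4857 to 3088 and 2258. The high level of CRISPR Control enters the value of CSK, whose log2 differences from WT alone were -0.25 and -0.70.

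Of 25 tested nucleases and nucleotide enzymes, 13 rose and 9 fell, beside 32.9% and 33%, with a median log2 difference of 0.19. SMPDL3A, an enzyme that degrades cGAMP, rose by 2.18 (limma, Benjamini-Hochberg adjusted p = 4.3e-15). As for ENPP1, the low level of CRISPR Control enters this value, and the log2 differences from WT alone were 0.39 and 0.52 in TIMP1 KO 1 and TIMP1 KO 2. Its mean in CRISPR Control was 53.3 ± 2.61 normalised counts against 591 ± 22.7 in WT, 778 ± 48.2 in TIMP1 KO 1 and 850 ± 74.7 in TIMP1 KO 2 (SD, n = 3). ENPP4, a relative of ENPP1, rose by 2.12 (limma, Benjamini-Hochberg adjusted p = 4.0e-12), from means of 354 and 164 to 978 and 1104. The low level of CRISPR Control enters the value of ENPP4 too, whose log2 differences from WT alone were 1.47 and 1.65. LSM11, a factor of histone RNA processing, fell by 0.86 (limma, Benjamini-Hochberg adjusted p = 2.5e-06), from 194 and 302 to 146 and 119, and against WT alone it was not past the threshold in TIMP1 KO 1 (-0.38).

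Of 11 tested genes of cyclic dinucleotide transport, 5 rose and 3 fell, beside 32.9% and 33%, with a median log2 difference of 0.08. GJB2, a gap junction protein, rose by 3.95 (limma, Benjamini-Hochberg adjusted p = 1.4e-19), with means of 2428 normalised counts in WT and 61.3 in CRISPR Control, and 5332 in TIMP1 KO 1 and 6746 in TIMP1 KO 2. GJA1, another gap junction protein, fell by 3.44 (limma, Benjamini-Hochberg adjusted p = 1.2e-19), from 1737 and 9354 to 253 and 538. The level of CRISPR Control, low for GJB2 and high for GJA1, enters these values. Against WT alone, the log2 differences in TIMP1 KO 1 and TIMP1 KO 2 were 1.13 and 1.47 for GJB2. For GJA1 they were -2.77 and -1.69. The transporter SLC46A3 rose by 1.24 (limma, Benjamini-Hochberg adjusted p = 6.6e-09), from 269 and 77.1 to 332 and 343, and did not differ past the threshold from WT alone in either knockout line. The transporter SLC46A1 fell by 0.46 (limma, Benjamini-Hochberg adjusted p = 0.000238), from 323 and 414 to 270 and 263, and likewise did not differ past the threshold from WT alone in either knockout line (-0.27 and -0.30).

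**Figure D5:**
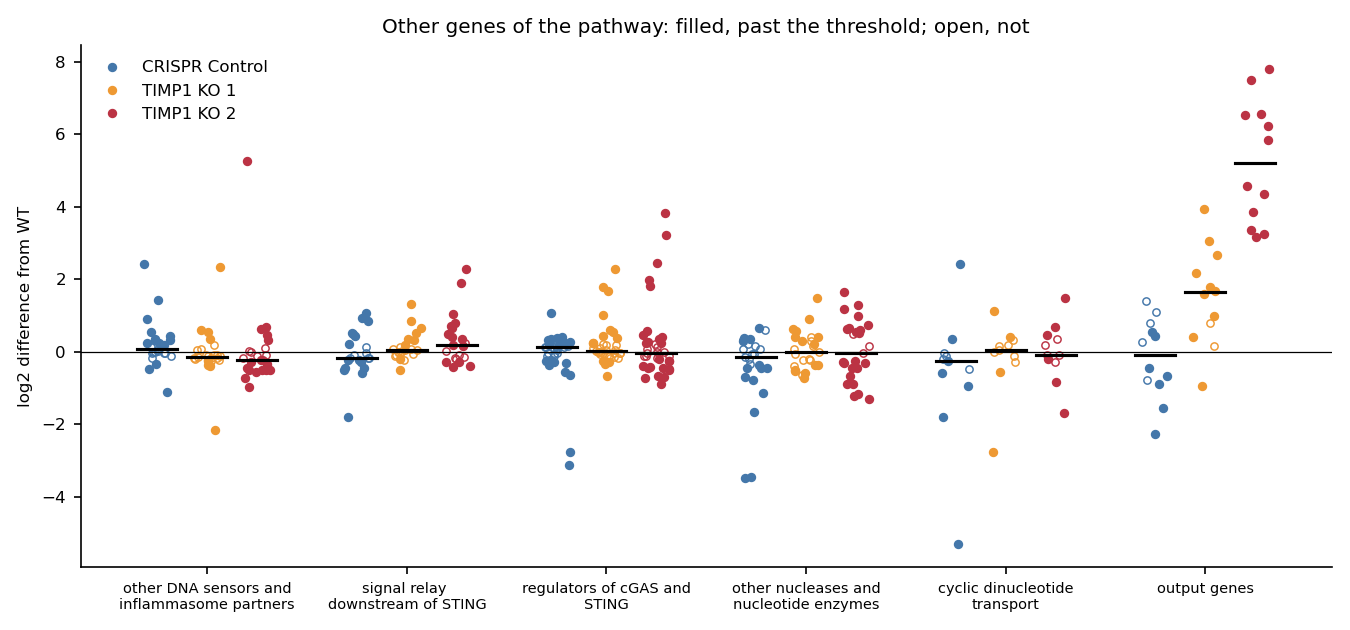
Log2 difference from WT (vertical axis) of each tested gene in the 6 lists for CRISPR Control, TIMP1 KO 1 and TIMP1 KO 2. Filled points are past the threshold, open points are not, and black bars are list medians. The output genes, 4 of which reached the minimum mean through TIMP1 KO 2 alone, have a median of 5.20 in that line, while the medians of the other lists lie between -0.26 and 0.18.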

How the data were processed

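Total RNA of the 12 libraries was sequenced in bulk. The authors trimmed reads with Cutadapt, aligned them to GRCh38 (STAR), assigned them to genes (featureCounts) and deposited a signal per gene, the read count divided by a DESeq2 size factor; the annotation release and strand setting are not given in the sources used here. From these values, whole reads were recovered (100% of positive values within 0.01 of a whole number). Columns of 4 line means were not used, and 1 blank line was left out. The main test was limma 3.58.1 (trend) in R 4.3.3 on log2 of normalised count plus 1, over all 12 libraries and 15987 genes with a mean of at least 10, two-sided, Benjamini-Hochberg adjusted over all of them; the threshold was 0.05. edgeR 4.0.16 and DESeq2 1.42.0 on recovered reads were alternatives. The fits were tested on simulated data. The labels call the libraries of a line biological replicates; no 2 agreed within sampling noise. Annotation was GENCODE release 44, which matched 99.1% of gene identifiers. The 10 genes and 6 lists were chosen with earlier results of these data known. From each list, the 2 highest and 2 lowest genes past the threshold in the mean of the knockout lines against WT and CRISPR Control were named, fewer where fewer passed in a direction; some values of the genes this rule names and of the markers are not reported here. Genes named beyond this were chosen after their values were seen.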

Additional observations from a re-analysis of the deposited data

Results flagged for a closer look

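The difference from WT was not the same in the knockout lines for 17 genes of the pathway lists that are named here, by the test of TIMP1 KO 2 against TIMP1 KO 1 (limma on all 12 libraries, Benjamini-Hochberg adjusted over all genes). This count stands beside 38.2% of all genes past the threshold in the same comparison. Some of the 17 were named after their values were seen, so nothing is read from the count. IL18 and OASL differed in direction. IL18 fell against WT in TIMP1 KO 1 and rose in TIMP1 KO 2, by log2 differences of -2.16 and 0.46, and the knockout lines differed by 2.62 (limma, adjusted p = 8.7e-11). The rise in TIMP1 KO 2 was not past the threshold without TIMP1 KO 2 replicate 1 (0.38) or with quantile normalization (0.28). OASL fell by 0.94 in TIMP1 KO 1 and rose by 3.25 in TIMP1 KO 2, a difference of 4.19 (limma, adjusted p = 9.2e-12). CASP1, MX1, OAS1, IRF7, ZDHHC15 and GJB2 rose in both knockout lines against WT and were higher in TIMP1 KO 2, by 2.90, 3.58, 3.18, 0.97, 0.93 and 0.34. CSK fell more in TIMP1 KO 2, with a difference between the knockout lines of -0.45. The fall of CSK in TIMP1 KO 1 against WT (-0.25) was lost without WT replicate 3 (-0.23), TIMP1 KO 1 replicate 2 (-0.23) or TIMP1 KO 1 replicate 3 (-0.24). USP18 and SAMHD1 were higher in TIMP1 KO 2, with differences between the knockout lines of 2.17 and 1.06. IFNL1, IFNL2, IFNL3 and RSAD2 differed by fitted values of 3.87, 5.04, 4.38 and 6.01, which the minimum mean, reached through TIMP1 KO 2 alone, helped to fix. OASL, USP18, SAMHD1, RSAD2 and the IFNL genes were named after their values were seen. GJA1 fell less in TIMP1 KO 2, with a difference of 1.08. GSDMD rose in TIMP1 KO 1 and did not differ past the threshold in TIMP1 KO 2, and the knockout lines differed by -0.52. Groups of 3 libraries were not tested for outliers.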

How the results depend on the processing

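With 3 libraries per line and 1 clone per knockout, small differences such as those of TBK1 and CGAS were at the limit of what could be called, and values under about 10 normalised counts rested on a few reads. Of 320 counts recomputed under alternatives, 310 were within 1.5 times the reported count. Asking also for an absolute log2 difference of at least 1 left 17, 29 and 17 other pathway genes in TIMP1 KO 1, TIMP1 KO 2 and CRISPR Control against WT, 29 and 41 in TIMP1 KO 1 and TIMP1 KO 2 against CRISPR Control, 19 in TIMP1 KO 2 against TIMP1 KO 1 and 29 in the mean of the knockout lines. It left 2 of the 10 genes in TIMP1 KO 2 against WT and 1 in TIMP1 KO 2 against TIMP1 KO 1. The share of all genes past this stricter rule is not given here, so nothing is read from these counts. Those with TIMP1 KO 2 include IFI16 or the IFNL genes and RSAD2, which reached the minimum mean through that line alone. Fitting only the lines compared left 1, ENPP1, in CRISPR Control against WT, since CGAS was no longer past the threshold and IFI16 no longer reached the minimum mean. Equal library totals moved the median of all genes in TIMP1 KO 2 against CRISPR Control from -0.01 to 0.11. With no minimum mean, the calls of IFI16 in TIMP1 KO 1 against WT, TBK1 in TIMP1 KO 2 against WT and CGAS in CRISPR Control against WT were lost, and with a pseudocount of 10 that of IFI16 in TIMP1 KO 1 was lost (0.39). The difference of ENPP1 in TIMP1 KO 2 against WT came past the threshold with equal library totals (0.28), quantile normalization (0.29), edgeR (0.20), DESeq2 (0.20) and only the lines compared (0.19). No named gene that was past the threshold changed sign under any alternative run.

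Leaving out 1 library gave 88 to 103 other pathway genes in TIMP1 KO 2 against WT, 53 to 65 in TIMP1 KO 1 against WT and 66 to 80 in CRISPR Control against WT. The value of IFI16 in TIMP1 KO 2 against WT ran from 5.77 with a pseudocount of 10 to 9.23 with DESeq2 on recovered reads, that of STING1 from 1.66 to 2.00, and that of RNASEH2B from -0.98 to -0.80.

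The lines share replicate numbers, but same-numbered libraries did not deviate together: over 18 pairs r ran from -0.13 to 0.16, 2 were over 0.1, and 4 of 12 libraries correlated best with their own number. With a replicate block, 98 other pathway genes were past the threshold in TIMP1 KO 2 against WT and 61 in TIMP1 KO 1 against WT, and the counts for the 10 genes did not change.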

Other observations

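Among the pathway genes left untested for a mean under 10, P2RX7, a channel that can admit cGAMP, had a mean of 24.4 normalised counts in TIMP1 KO 2 and 3.76 to 6.97 in the other lines. NLRP3, an inflammasome sensor, had means of 18.7 in TIMP1 KO 2 and 13.0 in CRISPR Control, against 3.08 in WT and 1.91 in TIMP1 KO 1. Both were named after their values were seen. Outside these, USP18, which restrains interferon signalling and is in the list of regulators of cGAS and STING, averaged 112 ± 1.83 normalised counts in WT and 238 ± 24.2 in CRISPR Control, and 359 ± 19.9 in TIMP1 KO 1 and 1619 ± 118 in TIMP1 KO 2 (SD, n = 3), and SAMHD1, a dNTP hydrolase, had 1941 ± 63.7, 1409 ± 23.8, 2269 ± 140 and 4712 ± 60.1 in the same order; they too were chosen after their values were seen.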
